A study of Mus musculus with 61 samples.

Results

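Receptors for steroid hormones, thyroid hormone and retinoids were followed through the adult mouse brain, 8 genes in all: the estrogen receptor Esr1, the progesterone receptor Pgr, the glucocorticoid receptor Nr3c1, the mineralocorticoid receptor Nr3c2, the thyroid hormone receptors Thra and Thrb, and the retinoid receptors Rxrg and Rarb. Probes were assigned through the RefSeq identifier of the array file, and the probe with the highest mean processed signal stood for each gene. A probe was found for 7 of the 8 receptors, out of 16358 genes with a probe. Nr3c2 was not analysed here. The values come from 61 arrays, 1 for each fraction of 1 mm. The fractions were cut from the whole brains of 6 male C57BL/6J mice aged 8 weeks. These mice had been perfused with RNAlater under anesthesia, and the sources used here describe no other treatment. One mouse was cut in each of 6 series: sagittal (S, 9 fractions) and slightly oblique sagittal (So, 10 fractions), coronal (C, 13) and slightly oblique coronal (Co, 16), horizontal (H, 6) and slightly oblique horizontal (Ho, 7). Coronal fractions were numbered from posterior to anterior, horizontal fractions from dorsal to ventral, and sagittal fractions from one side of the head to the other. A fraction holds every region that its slab crosses, so a value is an average over regions and cell types, and fewer cells of a type and less RNA per cell cannot be told apart. All animals were males of 1 strain and 1 age, and the hormone state of the animals was not given in the sources used here.

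Nuclear receptors are transcription factors that are switched by small lipophilic ligands. Steroid receptors are held by chaperones until hormone binds and then act mostly as homodimers, whereas thyroid hormone and retinoic acid receptors sit on DNA as heterodimers with a retinoid X receptor such as Rxrg and can repress their targets when no ligand is bound. In the brain Esr1 and Pgr are best known in the hypothalamus, where they take part in reproductive behaviour, Nr3c1 is widely expressed and mediates the stress response, Thra and Thrb act in brain development and neuronal metabolism, and Rxrg and Rarb are known from the striatum.

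Promoter sequence is shown for Rarb and Rxrg, the retinoid receptors of the list. The windows of the other receptors are not shown. Rarb is a textbook case of a receptor gene that is switched on by its own ligand through a retinoic acid response element, a direct repeat of receptor half-sites. The 250 bases upstream of the annotated starts were taken from RefSeq on the assembly GRCm38.p6 and are written 5′ to 3′ on the strand of the gene. The window of Rarb is chr14:16575477-16575726 on the minus strand, inside the gene's annotated span of chr14:16430839-17082331. The windows of Rxrg, whose gene spans chr1:167598362-167639623 on the plus strand, are chr1:167598112-167598361 and, for an internal start, chr1:167618015-167618264. Capitals mark the match to the direct repeat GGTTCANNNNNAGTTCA.
Rarb: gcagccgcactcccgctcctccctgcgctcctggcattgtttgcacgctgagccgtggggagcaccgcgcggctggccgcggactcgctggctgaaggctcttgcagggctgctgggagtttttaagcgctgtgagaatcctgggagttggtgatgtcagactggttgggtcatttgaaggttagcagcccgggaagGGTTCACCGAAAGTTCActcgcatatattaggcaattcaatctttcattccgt
Rxrg, first start: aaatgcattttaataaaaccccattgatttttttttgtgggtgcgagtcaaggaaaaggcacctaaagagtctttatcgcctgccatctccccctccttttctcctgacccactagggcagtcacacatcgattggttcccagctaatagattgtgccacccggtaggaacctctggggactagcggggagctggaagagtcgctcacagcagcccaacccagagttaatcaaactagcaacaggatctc
Rxrg, internal start: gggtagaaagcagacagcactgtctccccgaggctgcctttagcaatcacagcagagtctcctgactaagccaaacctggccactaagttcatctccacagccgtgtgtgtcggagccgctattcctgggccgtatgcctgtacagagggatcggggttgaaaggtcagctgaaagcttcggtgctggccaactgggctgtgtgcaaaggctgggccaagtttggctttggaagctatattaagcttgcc
The repeat lay 53 to 37 bases upstream of the Rarb start and was found, on either strand, in 2 of 32851 promoter windows of the same length (0.00609%). Its arms were spelled as in the Rarb element itself. The match in Rarb was thus fixed in advance, and the small share is no result about Rarb. Single half-sites were searched on both strands as well. The consensus AGGTCA was in 14.0% of all windows, its variant AGTTCA, which is also the second arm of the repeat, in 11.8%, and the first arm of the repeat alone (GGTTCA) in 8.85%. None of these was in the first window of Rxrg. The internal window of Rxrg held AGTTCA 164 to 159 bases upstream of the start, and the consensus half-site 88 to 83 bases upstream of it. A match is a description of the letters only. No promoter entry was held for Thra or Nr3c1.

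Levels are given as log2 of the deposited processed signal of the probe minus log2 of the 75th percentile of its array, so that 0 is a signal equal to that percentile and a step of 1 is a factor of 2 in signal. Since the brightness of a probe depends on its sequence, levels were compared between fractions and never between receptors. Fractions of a plane that the study matched between its mice form 28 pairs (9 sagittal, 13 coronal and 6 horizontal), which are "slightly different" replicates rather than repeats, and 5 fractions have no partner. Between 57.9% and 73.1% of the probes on an array were well above background, and no spot was saturated. The probes of Esr1, Nr3c1, Thra, Rxrg and Rarb were well above background in all 61 fractions, that of Thrb in 59 (not in Co3 and Co16) and that of Pgr in 58 (not in Co3, Co15 and Co16). The value of Thra in Co14 was left out because the scanner software had flagged its spot as an outlier. The regional markers used below were each well above background in some of the fractions, and their sums went with the directions of cutting that the methods give: the highest summed level of the olfactory bulb markers was in C13 and Co15, of the cerebellum markers in C3 and Co5, and of the hypothalamus markers in H6 and Ho7.

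Did the receptors differ between the positions along the axes of the brain? A moderated F test over the 28 pairs (limma, Benjamini-Hochberg adjustment over 36573 probes) called 6 of the 7 receptors, against 61.2% of all probes tested. Pairs of different planes come from different mice, so this F and the spread of the pair means also hold differences between those mice. The F values were 20.1 for Rxrg (adjusted p = 3.33e-11), 18.2 for Thrb (1.05e-10), 16.8 for Rarb (2.54e-10), 10.6 for Pgr (4.25e-08), 8.58 for Esr1 (4.31e-07) and 2.92 for Thra (0.00644). Nr3c1 did not pass (F = 1.49, adjusted p = 0.192). The median F of the receptors was 10.6, and that of all probes was 2.58. The SD between the pair means exceeded the pooled SD within pairs for Rxrg (1.30 against 0.419 on the log2 scale), Thrb (0.680 against 0.225), Rarb (0.721 against 0.250), Pgr (0.645 against 0.283), Esr1 (0.711 against 0.350) and Thra (0.259 against 0.214), whereas for Nr3c1 the spread within pairs was the larger (0.272 against 0.320).

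Rxrg, a dimer partner of thyroid hormone and retinoic acid receptors with a restricted distribution in the brain, had the widest range of the 7. Its pair means ran over a factor of 29.5 in signal, from a level of −0.23 in pair C3/Co4 to 4.65 in pair C10/Co11. From posterior to anterior its levels in C1 to C13 were 1.45, 0.12, −0.25, 0.04, 1.58, 1.58, 1.83, 3.18, 4.64, 4.54, 3.50, 2.35 and 2.30. The second coronal mouse gave 1.99, 1.26, 0.26, −0.21, −0.27, 1.47, 1.67, 1.71, 2.55, 4.13, 4.77, 4.02, 2.85, 2.45, 2.30 and 2.65 in Co1 to Co16. Both mice thus had a trough at the cerebellar level, a step up anterior to it and a single maximum in front of the middle of the brain, at C9 and Co11, with a lower plateau at the front. These are the fractions in which the summed striatal markers were highest (40.1 times the 75th percentile signal in C9 and 42.7 in Co11, against lowest sums of 2.97 and 2.50).

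In the horizontal plane Rxrg read 0.52, 0.14, 2.83, 3.67, 3.37 and 3.81 in H1 to H6, and 0.68, 0.40, 2.33, 3.06, 3.10, 3.53 and 3.53 in Ho1 to Ho7. H1, H2, Ho1 and Ho2 were low and every fraction below them was at 2.33 or more, so that the members of pair H2/Ho3 stood on opposite sides of this step (0.14 and 2.33). Across the sagittal series Rxrg read 1.95, 2.50, 3.35, 2.95, 2.52, 2.25, 3.16, 3.50 and 2.64 in S1 to S9. In So1 to So10 it read 1.67, 1.66, 3.75, 3.45, 2.52, 2.20, 3.25, 3.71, 3.33 and 2.93. Each of these mice had a maximum on either side of a dip near the midline (S6 and So6).

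Rarb, a retinoic acid receptor, had its maximum where Rxrg had, over a narrower range. Its pair means spanned a factor of 6.05, with the highest again in C10/Co11 (2.55) and the lowest in H1/Ho2 (−0.05). The levels in C1 to C13 were 0.79, 0.59, 0.26, 0.40, −0.05, −0.01, 0.28, 1.21, 2.33, 2.47, 1.46, 0.44 and 0.50. In Co1 to Co16 they were 0.69, 0.61, 0.44, 0.24, 0.28, 0.25, −0.01, 0.06, 0.81, 1.98, 2.62, 2.25, 0.84, 0.39, 0.34 and 0.71. The maximum stood at C10 and Co11, and at the front of the brain Rarb was back at the level it had at the rear, where Rxrg stayed above its caudal trough. Behind the maximum the profiles differed, since Rarb had its lowest coronal levels at C5, C6, Co7 and Co8, where Rxrg had already stepped up.

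**Figure D1:**
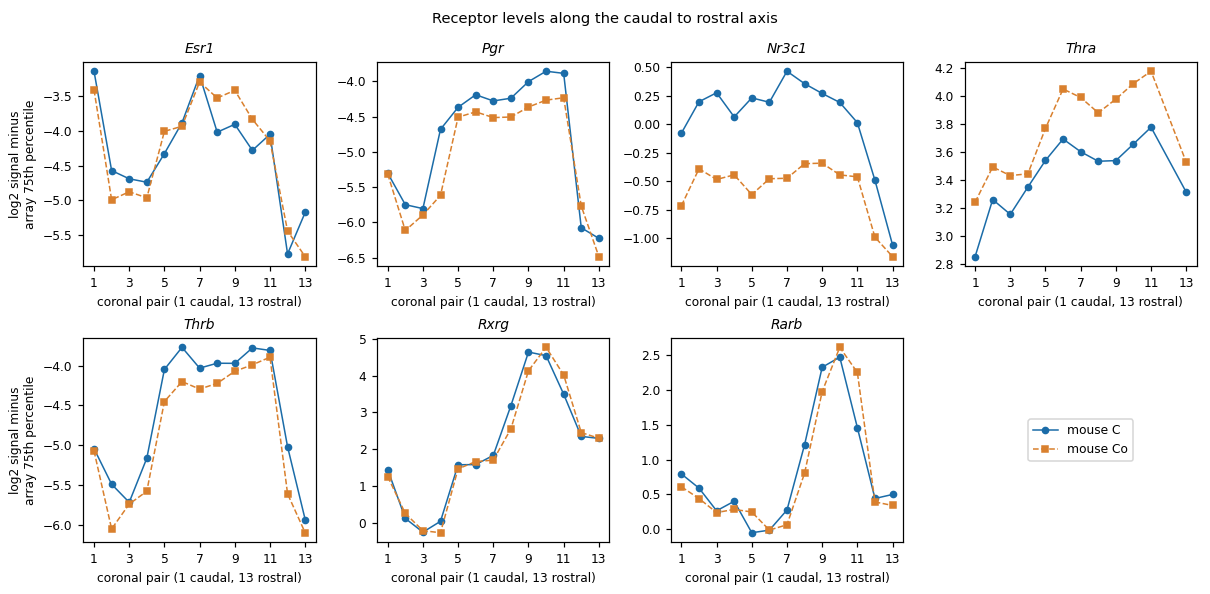
Levels of the 7 receptors along the 13 matched coronal pairs, from posterior to anterior, with 1 line for each coronal mouse (C and Co); the vertical axis is log2 processed signal relative to the 75th percentile of the array, on a scale of its own for each gene. Rxrg and Rarb have a single maximum at pairs C9/Co10 to C11/Co12, Thrb and Pgr are low at both ends, Nr3c1 is lower in Co than in C in every pair, and Thra has no point at C12/Co14 because 1 spot was left out.

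The positions were compared by 4 contrasts within the same fit. Ventral minus dorsal set the pairs H5/Ho6 and H6/Ho7 against H1/Ho2 and H2/Ho3, midline minus lateral set the 6 fractions of the 3 central sagittal pairs against the 8 of the 4 outermost, rostral minus caudal set the 8 fractions of the 4 anterior coronal pairs against the 8 of the 4 posterior ones, and middle minus both ends set the 10 fractions of the central coronal pairs against those 16. Differences below are log2 estimates with their standard errors, and adjusted p-values are from limma with Benjamini-Hochberg adjustment over all probes tested. Of the 7 receptors, 4 were called between ventral and dorsal fractions (14.2% of all probes), 3 of them higher ventrally (8.44%) and 1 lower (5.78%). Between midline and lateral fractions 3 were called (19.6%), all of them lower at the midline (9.09%, beside 10.5% of probes called higher). Between rostral and caudal fractions 5 were called (47.7%), all higher rostrally (19.9%, beside 27.8% lower). Between the middle and both ends 5 were called (35.0%), all higher in the middle than in the average of the ends (15.5%, beside 19.5% lower). Every called difference had the same sign in each of the mice of its plane taken alone. With the array slide as a fixed block, the ventral calls of Rxrg (2.54 ± 0.72, adjusted p = 0.0544), Rarb (0.0910) and Thrb (0.194), the rostral calls of Rarb, Thrb and Pgr and the middle call of Rxrg (adjusted p = 0.274) were lost, each with its sign kept. Because the median of all probes itself shifted with the scaling of the arrays, from −0.11 to 0.04 between rostral and caudal fractions and from 0.00 to −0.10 between midline and lateral ones when arrays were scaled to their medians, the differences are relative to the 75th percentile.

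Rxrg was 7.87-fold higher rostrally than caudally (2.98 ± 0.20, adjusted p = 1.47e-13). Its 8 rostral fractions lay between 2.30 and 4.77 with a median of 2.97, and its 8 caudal fractions between −0.27 and 1.45 with a median of 0.08. The difference was 2.83 in C and 3.12 in Co. Ventrally it was 6.56-fold higher than dorsally (2.71 ± 0.29, adjusted p = 5.70e-08), with ventral levels of 3.37, 3.81, 3.53 and 3.53 and dorsal levels of 0.52, 0.14, 0.40 and 2.33. Of the 4 dorsal fractions, 3 were below 1. The contrast of the middle of the coronal series with the average of its ends was also called for Rxrg (0.65 ± 0.17, adjusted p = 0.00269). Here the middle mean of 2.43 was above the caudal mean of 0.30 but below the rostral mean of 3.28. The median of the middle fractions (1.77) was below that of the end fractions (1.87). Between midline and lateral fractions the estimate was −0.17 ± 0.22 (adjusted p = 0.727). The highest fractions S8 and So3 belong to the lateral group, and the maxima of the other side, S3 and So8, to neither group.

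Rarb was 2.91-fold higher ventrally than dorsally (1.54 ± 0.18, adjusted p = 1.79e-07). The ventral levels were 1.48, 2.23, 1.62 and 1.49, and the dorsal levels −0.04, 0.01, −0.06 and 0.74. Rostrally it was 1.81-fold higher than caudally (0.86 ± 0.12, adjusted p = 8.44e-07). Here the groups overlapped, the rostral fractions running from 0.34 over a median of 0.98 to 2.62 and the caudal ones from 0.24 over 0.42 to 0.79, since C10, C11, Co11 and Co12 were above every caudal fraction and the other rostral fractions were within the caudal range. The other differences of Rarb did not pass, at 0.27 ± 0.13 for midline minus lateral (adjusted p = 0.186) and −0.20 ± 0.10 for middle minus ends (0.127). The second of these was called when C11 was left out (−0.25, adjusted p = 0.0435).

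Genes that supply or remove retinoids were measured in the same fit. Of the 16 tested genes of this list, 13 varied over the pairs, where 61.2% of all probes did. Ventrally 8 rose and 1 fell relative to dorsal fractions (8.44% and 5.78% of all probes). The list median was 0.67 against −0.01 for all probes. Among those that rose were Cyp26a1, which degrades retinoic acid (2.97, with 3 of the 4 dorsal fractions well above background), Ttr, the thyroxine and retinol carrier made in the choroid plexus (2.25), and Crabp1, a retinoic acid binding protein (1.82). Between rostral and caudal fractions 3 rose and 7 fell (19.9% and 27.8% of all probes). The largest differences were those of Ttr (−2.53), Aldh1a1, which makes retinoic acid from retinal (−2.14), and Cyp26b1, a second degrading enzyme (−1.27).

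Thrb, the thyroid hormone receptor with the more restricted distribution, was lowest at both ends of the brain. Its levels in C1 to C13 were −5.04, −5.49, −5.72, −5.16, −4.05, −3.77, −4.03, −3.97, −3.97, −3.78, −3.81, −5.02 and −5.93. In Co1 to Co16 they were −5.27, −5.07, −6.05, −5.74, −5.58, −4.45, −4.20, −4.29, −4.22, −4.07, −3.99, −3.89, −4.18, −5.61, −6.10 and −6.59. Between the cerebellar level and the olfactory bulb it formed a flat plateau, from C5 to C11 and from Co6 to Co13, with steps of more than 1 log2 unit at both edges. The middle was 2.03-fold higher than the ends (1.02 ± 0.09, adjusted p = 2.08e-10).

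Thrb was also 1.64-fold higher rostrally than caudally (0.71 ± 0.11, adjusted p = 3.39e-06), by 0.72 in C and 0.71 in Co. The groups overlapped, since the rostral fractions ran from −6.10 to −3.78 and the caudal ones from −6.05 to −5.04. It was 1.75-fold lower ventrally than dorsally (−0.80 ± 0.16, adjusted p = 0.000507), at −4.09, −4.39, −4.60 and −4.37 ventrally and −3.21, −3.71, −3.53 and −3.80 dorsally. It was lower at the midline than laterally (−0.49 ± 0.12, adjusted p = 0.00314), the sagittal series reading −3.63 at both S1 and S9 and −4.55 at S4 and S6. In So the lateral So2 and So3 were high (−3.63 and −3.70), but So10 on the other side (−4.37) was below the midline So5 and So6 (−4.27 and −4.28). A second probe of Thrb, well above background in 6 of the 61 fractions, had a profile that correlated with the first at r = −0.33, and it gave −1.10 for rostral minus caudal, −1.33 for middle minus ends and 0.07 for ventral minus dorsal. The Thrb values therefore describe 1 probe, whose signal was near the lower end of detection.

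Thra, the more widely expressed thyroid hormone receptor, varied far less. The pair means spanned a factor of 2.26, from 3.05 in C1/Co2 to 4.22 in S1/So2. In the coronal series its levels ran from 2.85 (C1) over a median of 3.53 to 3.78 (C11), and from 2.96 (Co1) over 3.77 to 4.18 (Co12), so that the rear of the brain had the lowest levels in both mice. Rostral exceeded caudal fractions by 0.36 ± 0.11 (adjusted p = 0.00890), the middle exceeded the ends by 0.30 ± 0.09 (0.00959), and the midline was lower than the lateral fractions (−0.41 ± 0.12, 0.0111). Dorsally it read 4.15, 3.74, 3.91 and 3.67, and ventrally 3.37, 3.62, 3.44 and 3.65, and the difference of −0.35 ± 0.15 did not pass (adjusted p = 0.142). With the mouse as a block it did (adjusted p = 3.73e-05). A second Thra probe, well above background in all 61 fractions, gave −0.022 (adjusted p = 0.978) for the same contrast, so the ventral values describe the first probe. The midline difference was not called without So5 (−0.34, adjusted p = 0.0564) or after normexp background correction (−0.31, 0.0957).

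**Figure D2:**
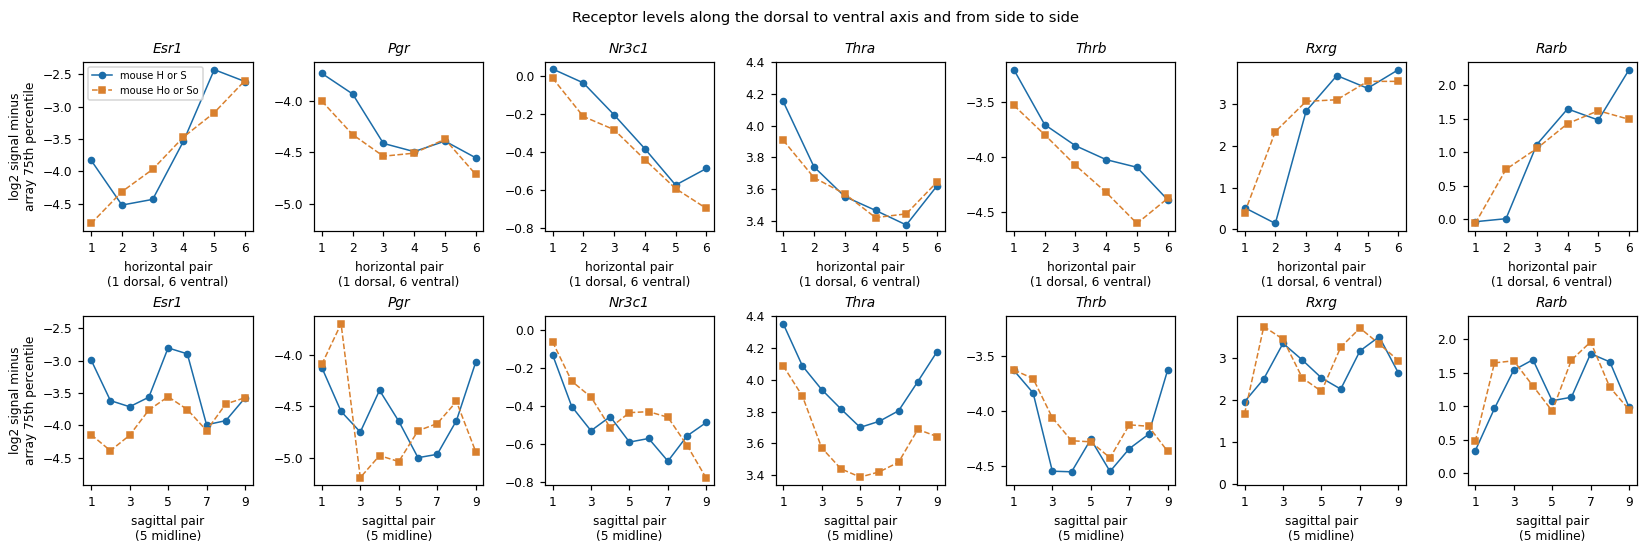
Levels of the 7 receptors in the matched pairs of the horizontal series (H and Ho, dorsal to ventral) and of the sagittal series (S and So, from one side to the other), as log2 processed signal relative to the 75th percentile of the array, 1 line for each mouse. The unpaired fractions Ho1 and So1 are not drawn. Rxrg and Rarb are low in the dorsal fractions and have a maximum on either side of the sagittal midline, Esr1 is highest in the ventral fractions, and Thra is lower in So than in S in every matched pair.

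Of 11 tested genes that supply thyroid hormone to cells, 8 varied over the pairs, where 61.2% of all probes did. Between rostral and caudal fractions 5 rose and 2 fell (19.9% and 27.8% of all probes). Crym, a thyroid hormone binding protein of the cytosol, was 68.0-fold higher rostrally (6.09), Dio3, the deiodinase that inactivates the hormone, was 9.47-fold higher (3.24), and Ttr was lower (−2.53). At the midline 1 rose and 5 fell relative to lateral fractions (10.5% and 9.09% of all probes). Dio3 at −2.22 and Crym at −1.09 were among those that fell. Among 11 tested genes that are known to respond to thyroid hormone, 10 varied over the pairs, beside the same 61.2%. Rostrally 2 rose and 6 fell, beside the same 19.9% and 27.8%. The largest differences were in genes that are also regional markers, Pcp2 of Purkinje cells (−4.90), Nrgn of forebrain neurons (4.54) and the neurotrophin Ntf3 (−2.83).

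Esr1, the estrogen receptor of the hypothalamus and other areas, was the only receptor called as higher in the ventral fractions besides Rxrg and Rarb. From dorsal to ventral it read −3.83, −4.52, −4.44, −3.54, −2.43 and −2.61 in H, and −4.44, −4.81, −4.32, −3.97, −3.47, −3.09 and −2.60 in Ho. The lowest levels were in the second fraction of both mice, and the highest were in the most ventral fractions. Ventral exceeded dorsal fractions 3.22-fold (1.69 ± 0.24, adjusted p = 7.39e-06), by 1.66 in H and 1.72 in Ho. The fractions with the highest sums of the hypothalamus markers were H6 (84.8 times the 75th percentile signal) and Ho7 (41.7).

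Along the coronal axis Esr1 had 2 maxima. Its levels in C1 to C13 were −3.14, −4.57, −4.69, −4.74, −4.33, −3.88, −3.20, −4.02, −3.91, −4.28, −4.05, −5.77 and −5.17. In Co1 to Co16 they were −2.94, −3.41, −4.99, −4.88, −4.96, −4.01, −3.93, −3.30, −3.53, −3.42, −3.83, −4.14, −4.17, −5.44, −5.81 and −5.12. The highest level of each mouse was in its most posterior fraction, C1 and Co1, a second maximum stood at C7 and Co8, and the lowest levels were at the front. Of the 7 hypothalamus markers, Agrp, Ghrh, Hcrt and Pomc were highest in C8 and Co9, 1 fraction anterior to that second maximum, Avp in C8 and Co10, Oxt in C9 and Co10, and Trh in C13 and Co15, at the front, and the hindbrain Hox markers in C1 and Co2.

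The middle of the coronal series exceeded its ends 1.82-fold for Esr1 (0.86 ± 0.14, adjusted p = 9.79e-06). Rostral minus caudal was −0.39 ± 0.17 and did not pass (adjusted p = 0.0620), but passed with the mouse as a block (0.0308) and without any 1 of S1, So2, C13, Co3, Co11, H1 or Ho2. Across the sagittal series Esr1 was highest at S5 (−2.80) and So6 (−3.56), the latter level with the outermost So10 (−3.57), with a midline difference of 0.35 ± 0.19 (adjusted p = 0.225). The outermost S1 was also high (−2.99), while its partner So2 was not (−4.15). A second Esr1 probe, well above background in 5 of the 61 fractions, had r = 0.46 with the first.

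Pgr, the progesterone receptor and a classic estrogen-induced gene, followed a different course from Esr1. Its coronal levels in C1 to C13 were −5.30, −5.75, −5.80, −4.68, −4.37, −4.19, −4.28, −4.24, −4.01, −3.86, −3.89, −6.08 and −6.23. In Co1 to Co16 they were −5.33, −5.32, −6.11, −5.89, −5.62, −4.51, −4.43, −4.52, −4.51, −4.37, −4.27, −4.23, −4.67, −5.77, −6.48 and −6.64. As for Thrb, a plateau in the middle was bounded by low levels at the cerebellum and at the olfactory bulb, where 3 Co values were not well above background. The middle was 1.98-fold higher than the ends (0.99 ± 0.11, adjusted p = 2.90e-08), and rostral exceeded caudal fractions by 0.46 ± 0.14 (0.00710). The rostral fractions ran from −6.48 to −3.86 and the caudal ones from −6.11 to −4.68, so these groups overlapped.

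In the horizontal series Pgr was highest at the dorsal side, at −3.74, −3.94, −4.01 and −4.33 in the dorsal fractions H1, H2, Ho2 and Ho3, and −4.39, −4.55, −4.37 and −4.71 ventrally. Ho3 was close to the highest ventral fraction, and the difference of −0.51 ± 0.20 did not pass (adjusted p = 0.0893), whereas it did with the mouse as a block (0.0373). Midline was lower than lateral (−0.47 ± 0.15, adjusted p = 0.0259), a call that was lost without any 1 of S6, S9, So3, So5, So6 or So9 (−0.58 to −0.36, adjusted p up to 0.129). So3 was the highest Pgr value of its series (−3.70). Its neighbours So2 and So4 read −4.09 and −5.19.

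Nr3c1, the receptor for corticosterone, had the narrowest span of pair means. The median level was −0.53 in S and −0.43 in So, it was 0.19 in C but −0.48 in Co, and it was −0.29 in H and −0.30 in Ho, while the span between the highest and the lowest pair mean was 2.18-fold. The levels in C1 to C13 were −0.08, 0.20, 0.27, 0.06, 0.23, 0.19, 0.46, 0.35, 0.27, 0.19, 0.01, −0.49 and −1.06. In Co the first 13 fractions lay between −0.74 and −0.34, and Co14, Co15 and Co16 read −0.99, −1.16 and −1.01. Outside the olfactory end, where both mice had their lowest levels, the 2 coronal profiles were flat and set apart from each other.

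The dorsal fractions of Nr3c1 read 0.04, −0.04, −0.01 and −0.21, and the ventral fractions −0.58, −0.49, −0.59 and −0.70. None of its position contrasts passed: the estimates were −0.53 ± 0.22 ventral minus dorsal (adjusted p = 0.119), −0.35 ± 0.16 rostral minus caudal (0.0646), 0.30 ± 0.13 middle minus ends (0.0664) and −0.09 ± 0.17 midline minus lateral (0.846). With the mouse as a block Nr3c1 varied over the pairs (F = 12.3, adjusted p = 2.10e-08), and the first 3 contrasts passed with adjusted p of 3.58e-05, 1.68e-05 and 1.58e-05. Rostral minus caudal also passed without any 1 of C7, C10, C11, C12, Co2, Co3, Co4, Co5 or Co8.

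**Figure D3:**
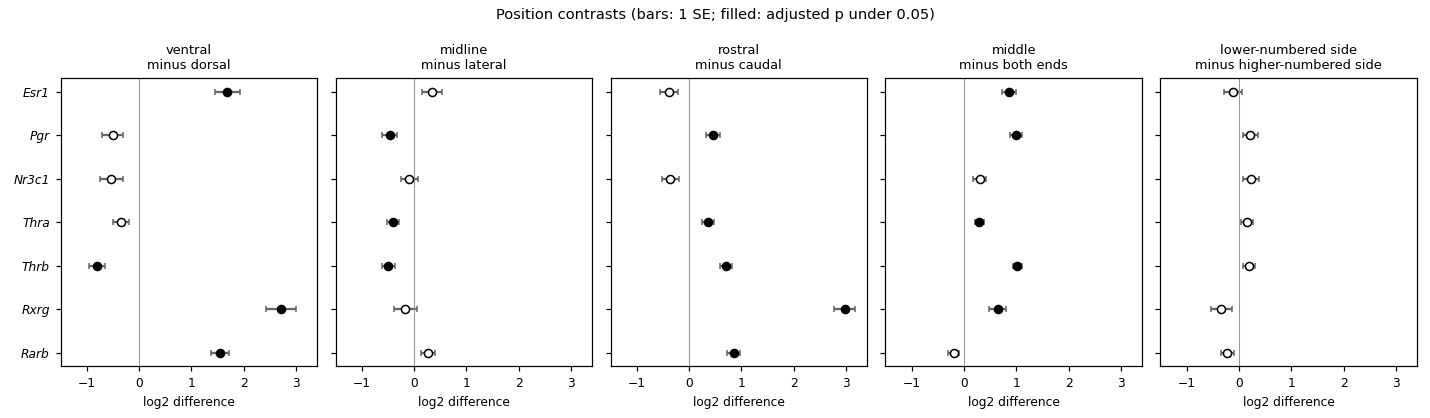
Log2 differences with standard errors for each receptor in the 4 position contrasts and in the comparison of the lower-numbered with the higher-numbered sagittal side; filled points passed an adjusted p of 0.05 (limma, all probes), open points did not. Rxrg has the largest differences (2.98 rostral minus caudal and 2.71 ventral minus dorsal), and every side difference is at most 0.33 in size.

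The lower-numbered and the higher-numbered sides of the sagittal series hold the same structures and served as a background comparison. None of the 7 receptors was called (0 at an unadjusted p of 0.05 as well), against 0.137% of all probes (0.0383% higher and 0.0984% lower on the lower-numbered side), and the largest difference was 0.33 in size. With the mouse as a block 1 receptor was called, Thra at 0.16 (adjusted p = 0.0447). Among paired fractions, the highest level of a receptor was in the same pair in both mice of a plane in 10 of 21 cases. It was 1 pair apart in 5 and farther apart in 6. Unpaired fractions were left out, so Esr1, highest in C1 and the unpaired Co1, counted among the last. The coronal profiles of the 2 mice correlated at r between 0.90 and 0.98 over the 13 pairs (12 for Thra), the sagittal ones at r between 0.16 for Pgr and 0.92 for Thra over 9 pairs. These points share brains, and the value of r is a description.

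Which other genes had profiles like those of the receptors? Each profile was centred on the mean of its mouse, and Pearson's r was taken over the 61 fractions, whose neighbours within a brain are not independent. Rxrg was most like Rgs9 (r = 0.96), Pde1b (0.95) and Gpr6 (0.95), and among the markers it stood closest to Rgs9 and to the dopamine receptor Drd1 (0.93). Rarb was most like Serpina9 (0.96), Ptpn7 (0.95) and Pde10a (0.93), and among markers it stood closest to Rgs9 (0.91), Drd2 (0.89) and Ppp1r1b (0.87), all of them expressed in striatal projection neurons. The neuropeptide genes Penk and Tac1, which were listed as estrogen and progestin targets, had r of 0.89 and 0.86 with Rarb. Rxrg and Rarb correlated with each other at 0.86, at 0.90 in the sagittal, 0.81 in the coronal and 0.98 in the horizontal fractions.

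Pgr and Thrb had the closest profiles among the receptors (r = 0.92), each from a probe of low signal, and Thrb ranked first of 15519 genes for Pgr. After Thrb, the genes most like Pgr were Myrip (0.92) and Flrt2 (0.92), and those most like Thrb were Lrfn5 (0.95), Flrt2 (0.94) and Phf24 (0.94). The cortical marker Neurod6, a transcription factor of cortical projection neurons, had r of 0.81 with Pgr and of 0.87 with Thrb. The lowest values for both were with markers of vessels, blood and the olfactory bulb, at −0.74 for Pgr and −0.75 for Thrb with Slco1a4, at −0.72 and −0.74 with Hba-a1, and at −0.78 and −0.75 with Eomes. The part of vessels and blood in these profiles was not tested.

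Thra was most like Gpm6a, Dennd1a and Fam53c (0.92 each, over 60 fractions), stood at 0.77 with Thrb and 0.76 with Neurod6, and had its lowest marker value with the astrocyte gene Aqp4 (−0.74). The profile of Nr3c1 was most like those of Scn8a (0.90), Nuak1 (0.90) and Fbxo45 (0.88), with 0.51 for Neurod6 and −0.80 for Doc2g, a gene of the olfactory bulb. Esr1 was most like Ngb (0.87), which encodes neuroglobin, Rwdd2a (0.84) and Arhgap6 (0.84). Its closest markers were the hypothalamic Ghrh (0.58) and Agrp (0.51), and among the listed genes the second estrogen receptor Esr2 (0.71).

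**Figure D4:**
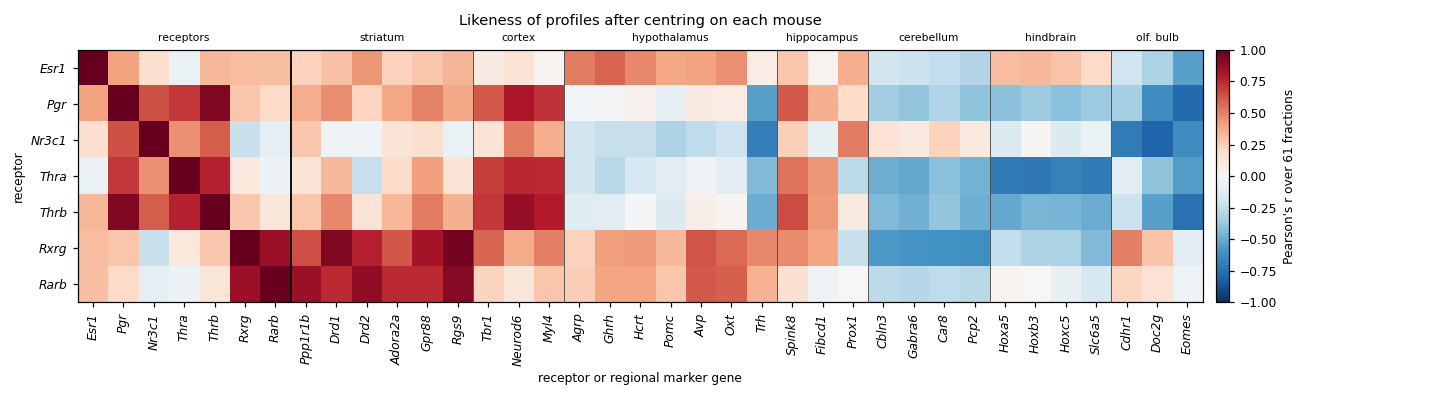
Pearson r between each receptor and the regional markers over the 61 fractions, after centring each profile on its mouse. Striatal markers have the highest values with Rxrg and Rarb, cortical markers with Thrb, Pgr and Thra, and hypothalamic markers reach 0.58 with Esr1.

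The other members of the pathway were counted in the same fit. Of 38 tested nuclear receptors besides the 7, 31 varied over the pairs, where 61.2% of all probes did. Between rostral and caudal fractions 8 rose and 15 fell (19.9% and 27.8% of all probes). Among them were the orphan receptors Nr2e1, known from forebrain progenitors (7.58, with 3 of 8 caudal fractions well above background), and Esrrb (−2.64). Ventrally 4 rose and 5 fell (8.44% and 5.78% of all probes). These included Nr0b1, known from the hypothalamus (at least 6.41-fold higher, with no dorsal fraction well above background), the vitamin D receptor Vdr (1.55) and Nr2f2 (1.55). The median difference was −0.16 rostral minus caudal and −0.15 ventral minus dorsal, beside −0.11 and −0.01 for all probes.

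Of the 16 tested genes for steroid synthesis and inactivation, 10 varied over the pairs, a share near the 61.2% of all probes. Cyp19a1, the aromatase that makes estradiol from testosterone, was at least 6.75-fold higher ventrally than dorsally (adjusted p = 4.42e-09), a lower bound because none of the 4 dorsal fractions was well above background, and was highest in H6, Ho7, C7 and Co9. Hsd11b1, which regenerates corticosterone, was lower rostrally (−2.10), and Cyp11a1, the enzyme that starts steroid synthesis, was higher rostrally (1.32) and lower ventrally (−0.73). Ventrally 1 gene of the list rose and 2 fell (14.2% of all probes were called), and rostrally 3 rose and 6 fell (47.7%). All 9 tested genes listed as estrogen or progestin targets varied over the pairs, with a median F of 22.9. Ventrally 6 rose and 2 fell (8.44% and 5.78% of all probes). Among these were the cholecystokinin receptor Cckar (3.81, with 1 of 4 dorsal fractions well above background) and the neuropeptides Gal (3.30) and Tac1 (2.37). At the midline 6 rose and 1 fell (10.5% and 9.09% of all probes), among them Gal (2.39). There Cckar was at least 7.90-fold higher, since it was not well above background in any lateral fraction. Greb1 was called higher too. It was well above background in only 1 of 6 midline fractions and in no lateral one, so no fold is given. Their median ventral minus dorsal difference was 1.13, beside −0.01 for all probes.

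The machinery shared by the receptors was counted too, beside 61.2% of all probes that varied. Among 10 chaperones 6 varied over the pairs, with a median F of 2.27. Rostrally 1 rose and 3 fell (19.9% and 27.8% of all probes), led by Fkbp5 (0.99), Fkbp4 (−0.57) and Hsp90aa1 (−0.34). No chaperone passed between ventral and dorsal fractions, where 14.2% of all probes did. Of 14 coregulators 7 varied, with a median F of 2.33. Rostrally 5 of them rose and 1 fell, among them the arginine methyltransferase Carm1 (0.51) and the corepressor Nrip1 (−0.31). The median F of all probes was 2.58.

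Did the receptors differ between the mice of a plane? This was tested with the pair as a term, 1 mouse against 1, so that the mouse and the angle of cutting cannot be told apart, nor can the day of scanning for the coronal and most of the sagittal arrays. The test therefore compares these animals and not a condition. Of the 7 receptors 3 differed, against 63.1% of all probes: Thra (F = 57.1, adjusted p = 4.10e-10), Nr3c1 (F = 53.8, 4.46e-10) and Thrb (F = 7.21, 0.00241, but 0.0710 with the slide as a random block). For Esr1 the F was 3.39 (adjusted p = 0.0513), for Pgr 2.72 (0.0948), for Rxrg 0.89 (0.515) and for Rarb 0.20 (0.913). Rxrg and Rarb thus had F values below 1, and the highest belonged to Thra and Nr3c1, whose pair means had the narrowest spans. The precision differed between receptors: the standard error of So minus S was 0.19 for Rxrg and 0.04 for Thra. A step of the size called for Thra there (−0.33) could therefore be missed in Rxrg.

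Between Co and C 1 receptor was higher and 3 were lower, where 53.5% of all probes were called, 26.8% as higher and 26.6% as lower. Nr3c1 was 1.53-fold lower in Co (−0.61 ± 0.05, adjusted p = 2.91e-11), in 13 of 13 pairs. Its other probes gave −1.11 and −0.82, both called. Thra was 1.24-fold higher in Co (0.32 ± 0.03, adjusted p = 5.97e-09), in 12 of 12 pairs, and its second probe gave 0.11 (0.0428). Thrb was lower by a smaller step (−0.27 ± 0.07, adjusted p = 0.00136) in 13 of 13 pairs, and Pgr was lower in 12 of 13 (−0.26 ± 0.10, 0.0320). The call of Pgr was lost without any 1 of C2, C4, C9, C10, C11, Co3, Co5, Co10, Co11 or Co12 (−0.31 to −0.20, adjusted p up to 0.0908), and also with the slide as a random block (adjusted p = 0.223), after median scaling (0.0629), in the authors' scaled table (0.0551) and after normexp (−0.10, 0.0723).

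Between So and S 2 receptors were lower, where 30.1% of all probes were called, 11.9% as higher and 18.2% as lower. Thra was lower in 9 of 9 pairs (−0.33 ± 0.04, adjusted p = 2.93e-07), and its second probe gave −0.15 (0.0413). Esr1 was lower in 7 of 9 (−0.45 ± 0.14, adjusted p = 0.0203), a call lost without any 1 of S1, S2, S5, S6, So2, So3, So6 or So7 (adjusted p between 0.00825 and 0.0661 over all arrays left out) and with the slide as a random block (0.0557). Between Ho and H no receptor was called by limma (5.35% of all probes were, 3.77% as higher and 1.58% as lower), and 1 was at an unadjusted p of 0.05. The nearest was Thrb at −0.23 (adjusted p = 0.206).

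**Figure D5:**
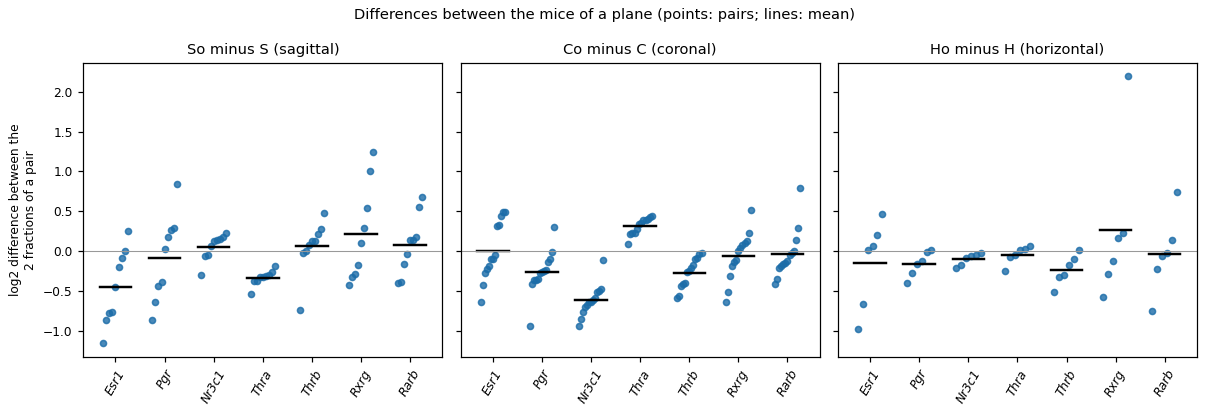
Differences between the mice of a plane (So minus S, Co minus C, Ho minus H; log2) for each matched pair of fractions, by receptor, with the mean of the pairs. All 13 coronal points of Nr3c1 are below 0, all 12 coronal points of Thra are above 0 and all 9 of its sagittal points are below 0, while the points of Rxrg and Rarb lie on both sides of 0.

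Genes known to be induced by corticosteroids were set beside Nr3c1. All 13 tested genes of the list differed between mice, where 63.1% of all probes did, with a median F of 50.05 beside 5.93 for all probes. In So 10 were lower and 2 higher than in S (30.1% of all probes were called). In Co 6 were higher and 5 lower than in C (53.5%). In Ho 2 were higher and 1 lower than in H (5.35%). Sgk1, a kinase, was at −0.93 for So minus S, 0.44 for Co minus C and 0.46 for Ho minus H, and Per1, a clock gene, at −0.67, 0.61 and, not called, 0.03. Sult1a1 was at −0.93, 0.42 and, not called, 0.32, Plekhf1 at −0.55, 0.57 and 0.49, and Cdkn1a at −0.43, 1.07 and, not called, 0.21. Fkbp5 was at 0.26, −0.26 and, not called, 0.28, with 2 other probes that gave 0.47 and −1.02 for So minus S.

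Klf9, a transcription factor induced by corticosteroids and by thyroid hormone, had the largest differences of the list. It was 6.01-fold lower in Co than in C (−2.59) and 5.03-fold lower in Ho than in H (−2.33), and higher in So than in S (0.56). Its sagittal levels had a median of 1.80 in S (1.54 to 2.00) and of 2.38 in So (1.95 to 2.94). The coronal medians were 2.02 in C (1.38 to 2.82) and −0.58 in Co (−0.98 to 0.51), and the horizontal ones 2.40 in H (1.16 to 3.04) and 0.14 in Ho (−0.72 to 0.30). No fraction of Co or Ho reached the lowest fraction of the other mouse of its plane, and the share of all probes set apart in this way was not counted. A second probe of Klf9 gave −2.61 for Co minus C and −2.54 for Ho minus H, both called, and −0.20 for So minus S (adjusted p = 0.227).

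The remaining genes of the list had smaller values. Tsc22d3 was at −0.21 for So minus S, −0.45 for Co minus C and 0.19 for Ho minus H (adjusted p = 0.0680), Pdk4 at −0.39, −0.25 and, not called, −0.10, and Errfi1 at −0.36, −0.22 and, not called, −0.07. For So minus S, Nfkbia was at −0.70 and Dusp1 at −0.66, and neither was called in the other planes. Ddit4 was called for Co minus C alone (0.71). The related receptor Nr4a1, an immediate early gene, was at −1.02 for So minus S and 0.82 for Co minus C. Among the chaperones 8 of 10 differed between mice, beside 63.1% of all probes, and in Co Ptges3 was at −0.72, Hspa8 at 0.67 and Hsp90ab1 at −0.57. Among the coregulators 12 of 14 did, and in Co Crebbp was at 1.04. The part of handling, time of day or array processing in these differences was not tested.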

How the data were processed

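The authors hybridised RNA of each fraction to 1 one-colour Agilent 4 x 44K mouse array and extracted signals with Feature Extraction (9.1.3.1 per the file headers, 9.1 in the submitters' processing notes). The deposited processed signal is a background-corrected linear intensity with no scaling between arrays, and the authors also deposited a per-chip scaled linear intensity table of 36558 probes, used as an alternative. The files name another array design number than the methods do. Here the log2 processed signals of replicate spots were averaged, leaving out spots flagged as outliers, and the 75th percentile of the array was subtracted. Probes entered the tests if any array held a spot of theirs flagged as well above background (36573 of 41174 probes, of which 22951 had a RefSeq name). Where no fraction of a group was well above background, a fold is a lower bound, with each array of that group set to the higher of the probe and the lowest signal among its probes well above background. Arrays carry no read depth, so the number of arrays limits the precision.

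Fractions were grouped by the labels and matched into pairs as the study did. The labels number the S fractions from 2 to 10, and they are numbered here from 1, as in the paper. One of their labels names set 2 but the mouse of the others, and it was kept with S. R 4.3.3 with limma 3.58.1 (lmFit, eBayes) made the fits and Python 3.11.15 with pandas 2.3.3, numpy 2.4.6 and matplotlib 3.10.9 the rest, with Benjamini-Hochberg adjustment and a threshold of 0.05. The 56 paired fractions left 28 residual degrees of freedom, and p-values measure the spread between matched fractions of 2 mice. The fit was tested on simulated data: of 200 probes changed by 1 log2 unit, 58.5% were recovered between ventral and dorsal fractions and 81.0% between Co and C, with 9 and 10 false calls among 36573 probes. The simulated noise was independent between arrays, whereas arrays of a slide correlated at 0.54 in the data. These counts therefore do not measure the false calls in the real data.

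The labels give 1 mouse to each series. Deviations from the pair means correlated positively within a mouse (129 combinations of fractions, median r = 0.28, 114 above 0.1), against a median of −0.03 between mice of different planes, and fits with the mouse as a block were run beside the main fit. Other alternatives were slide as a random or fixed block, scan day, median scaling, the authors' table, normexp background correction with an offset of 50, probes well above background on all arrays, a plane alone, other probes of a gene, each mouse alone and leaving out each array. Genes named are the receptors, the 3 genes most like each, up to 3 called genes with the largest difference in each of 9 lists, and the whole corticosteroid list. The markers named beside a receptor, and Esr2, Penk and Tac1 as genes like one, were picked after their values were seen. The receptors and lists were chosen with earlier results of these data known. No probe was matched for Nr3c2, Zbtb16, Oxtr, Cyp11b1, Sts, Rasd2 and Cyp26c1, which are not analysed here. Some genes that this rule selects are not reported here.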

Additional observations from a re-analysis of the deposited data

Results flagged for a closer look

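Among the 7 receptors and the 13 corticosteroid targets with a probe, some genes differed one way between the mice of one plane in every matched pair. In another plane they differed the opposite way in every pair. The share of all probes with this pattern was not counted. The difference between the planes was not tested, and each plane has 1 mouse on either side. Thra was at −0.33 for So minus S, lower in 9 of 9 pairs, and at 0.32 for Co minus C, higher in 12 of 12. Per1 was at −0.67 for So minus S and 0.61 for Co minus C. Sult1a1 was at −0.93 for So minus S and 0.42 for Co minus C. Tsc22d3 was at −0.21 for So minus S and −0.45 for Co minus C, and at 0.19 for Ho minus H. No fraction of S, So, H or Ho stood apart from its series for any of the 7 receptors by Dixon's ratio.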

How the results depend on the processing

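The receptors' calls were recomputed under each alternative. With the mouse as a replicate block, 7 receptors were called between ventral and dorsal fractions and 1 between the sagittal sides, and with scan day as a block 7 and 2. The block is not the study's own fit, and it changed no other count of receptors by over 1.5 times. With slide as a fixed block, 1 receptor was called between ventral and dorsal (Esr1) and, of the 6 that could be fitted in the coronal contrasts, 1 between rostral and caudal (Rxrg) and 3 between the middle and the ends. With slide as a random block 1 was called between So and S. With sagittal pairs alone 0 varied. Among probes well above background on all arrays, 5 receptors remained tested, with 1 called between midline and lateral, 3 between middle and ends and 2 between Co and C. With other probes 1 was called between So and S. Leaving out each array gave 1 to 3 calls between midline and lateral and 1 to 2 between So and S.

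Outside the side contrast, signs turned in 13 of 45 values with other probes of a gene and in 20 of 3526 without 1 array. For Thrb other probes gave 0.073 ventral minus dorsal, −1.10 rostral minus caudal, −1.33 middle minus ends, −0.17 between sides, 0.64 Co minus C and 0.93 Ho minus H, for Esr1 −0.61 midline minus lateral, −0.54 Co minus C and 0.036 Ho minus H, for Nr3c1 0.088 and 0.010 midline minus lateral and −0.10 and −0.24 So minus S, and for Thra 0.031 Ho minus H. Normexp turned Pgr in So minus S (0.043), and the random slide block turned Esr1 in Co minus C (−0.019) and Rarb in Ho minus H (0.0093). Leaving out an array moved Esr1 between sides from −0.25 to 0.035, in Co minus C from −0.032 to 0.061 and in Ho minus H from −0.27 to 0.017, Pgr in So minus S from −0.19 to 0.020, and Rxrg and Rarb in Ho minus H from −0.12 to 0.44 and from −0.18 to 0.11. The cause was not tested. Thra no longer varied over the pairs with normexp (adjusted p = 0.0583).

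The calls over all probes moved by over 1.5 times in these cases. Probes that varied numbered 14740 when well above background everywhere, 2392 with sagittal, 13794 with coronal and 4607 with horizontal pairs alone. Ventral minus dorsal had 9931 with the mouse block, 1611 with slide fixed, 10589 with scan day and 3185 without H2. Midline minus lateral had 12149 with the mouse block and 12353 with scan day. Slide fixed gave 3554 rostral minus caudal and 7512 middle minus ends. The sides had 568 with the mouse block, 844 with scan day, 0 with the random slide block, 22 among probes well above background everywhere and 46 to 280 without 1 array. So minus S had 5188 with the random slide block, and Ho minus H 381 with it, 1265 with normexp and 1083 to 2978 without 1 array. The share of calls that were higher changed from 59.4% to 44.1% ventrally, from 53.6% to 31.7% at the midline, from 41.8% to 59.0% rostrally, from 39.6% to 62.1% in So and from 70.4% to 56.8% in Ho when arrays were scaled to their medians. Of 3526 values recomputed without 1 array, 3434 kept their sign and side of the threshold.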
